A study of Mus musculus with 2 samples.

Results

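Vgf, Muc5ac, Shc3 and Shc4, which the study lists among the genes that the CIC::DUX4 fusion switches on, were followed through the single-nucleus RNA-seq (snRNA-seq) of dFLEx CDS tumors. They were chosen by their symbols and make up 4 of the 19059 features counted in every matrix, under the identifiers ENSMUSG00000037428 for Vgf, ENSMUSG00000037974 for Muc5ac, ENSMUSG00000021448 for Shc3 and ENSMUSG00000035109 for Shc4. The study used all 4 in its fusion activity score and some of them to recognize tumor cells in these same samples, so their presence in tumor nuclei is not independent evidence here. Sarcomas were raised in mice whose fusion allele is driven by a CAG promoter and is switched on by both Cre and FLPE recombinase, delivered as plasmids by electroporation into hind limb muscle. The untreated sample carries the genotype label dFLEx CDS +/-. The Minnelide sample has no genotype label, and its tumors received the drug at 0.42 mg/kg for a period labelled as 21 days. Minnelide releases triptolide, a blocker of the XPB helicase in the general transcription factor TFIIH, and dissolves in water where triptolide does not. Neither label gives an age. Each sample holds 4 matrices, each taken as 1 tumor, so the comparison was of 4 untreated with 4 Minnelide tumors. Tumor numbers follow the order of the files and do not tie tumors to shared animals. File names add the word responder for Minnelide tumors 1 and 2 and nonresponder for Minnelide tumors 3 and 4, which the labels do not carry, so these words are used only to describe single tumors.

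CIC is a DNA-binding repressor that sits on short octamers near genes of the receptor tyrosine kinase and MAPK response, such as the ETS factors Etv1, Etv4 and Etv5. In CIC::DUX4 sarcoma the DUX4 end turns it into an activator of the same genes. Vgf encodes a secreted granin-family precursor that neurons and endocrine cells cut into neuropeptides. Muc5ac encodes a gel-forming mucin of airway and stomach mucous cells. Shc3 and Shc4 encode phosphotyrosine adaptors of the SHC family, which link receptor tyrosine kinases to GRB2, SOS and RAS. Shc3 is best known from neurons, and Shc4 from melanoma, brain and skeletal muscle.

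The promoters were read first, because the members were chosen as targets of a DNA-binding factor. Coordinates are of GRCm39, with GENCODE release M39 transcripts, whose build is the mm39 of the submitters' processing notes. Vgf lies on chromosome 5 at 137055246 to 137062205 on the plus strand, and its canonical transcript starts at 137059130. Muc5ac lies on chromosome 7 at 141342709 to 141372968 on the plus strand. Shc3 occupies chromosome 13 at 51577429 to 51723523 and Shc4 chromosome 2 at 125469363 to 125566129, both on the minus strand. Eid1, which is among the counted features, lies inside Shc4 on the opposite strand at 125515015 to 125516705. The 4 CIC octamers TGAATGAA, TGAATGGA, TCAATGAA and TCAATGGA were searched on both strands from 250 bases before to 50 bases after each canonical start, with overlapping matches counted. This window held 6 octamers in Vgf, 1 in Shc3, 1 in Shc4 and 0 in Muc5ac. Etv4, a classic CIC target shown for scale, held 5. Of 21770 protein-coding genes, 795 or 3.65% had any octamer in the same window and 70 or 0.322% had at least 2.

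The sequences that carry these matches are printed 5′ to 3′ on the strand of the gene, with the octamers in capitals. The Vgf sequence is the 250 bases before the start, chr5:137058880-137059129 on the plus strand. The Shc3 and Shc4 sequences are 30 bases that begin 20 bases after the first transcribed base, chr13:51723474-51723503 and chr2:125566080-125566109 on the minus strand.
Vgf: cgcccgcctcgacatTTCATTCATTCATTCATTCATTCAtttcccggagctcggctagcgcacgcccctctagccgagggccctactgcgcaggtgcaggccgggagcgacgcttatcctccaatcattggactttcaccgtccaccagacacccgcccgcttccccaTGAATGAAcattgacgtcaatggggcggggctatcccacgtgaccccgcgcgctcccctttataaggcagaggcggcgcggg
Shc3: tgcaaggacccgcTCCATTCAcagaaacgc
Shc4: tacagctattctcggcTCCATTCAcagatt
Positions are counted with the first transcribed base as 0. In Vgf, 5 copies of TGAATGAA overlap on the opposite strand, with first bases from -235 to -219, and the other copy reads forward at -82. Shc3 and Shc4 each have TGAATGGA on the opposite strand, at +33 and +36 from the start. The longest run that the Shc3 and Shc4 windows share is 14 bases long, gcTCCATTCAcaga, and it holds this octamer.

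In a wider window of 2000 bases before to 500 bases after the start, the counts were 11 in Vgf, 5 in Shc4, 4 in Muc5ac and 3 in Shc3. The Muc5ac octamers all start between -1393 and -1295. Of all protein-coding genes 33.2% had an octamer in the wider window and 8.40% at least 2. A match is a description of the letters and not of binding, which these data do not measure.

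**Figure D1:**
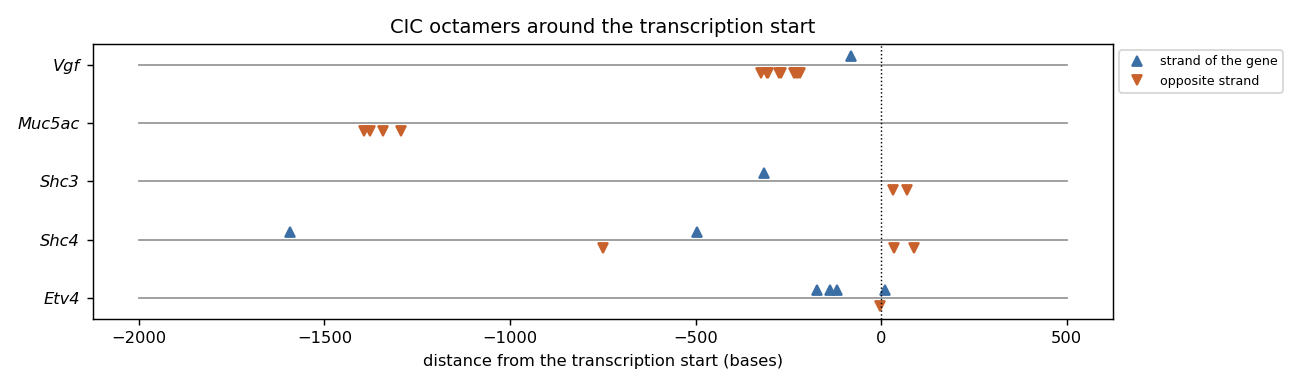
Positions of CIC octamers from 2000 bases before to 500 bases after the canonical transcription start of the 4 members and Etv4, with the distance in bases on the x axis. Triangles pointing up mark octamers on the strand of the gene and those pointing down the opposite strand. Vgf has 11, starting between -324 and -82, and the 4 of Muc5ac start between -1393 and -1295.

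The deposit held 72338 nuclei, 5210 to 12615 per tumor, and 59356 were retained after removal of nuclei with high mitochondrial content and of doublets. Median UMIs per nucleus ranged from 883 in untreated tumor 4 to 4031 in Minnelide tumor 1. Marker genes, with the 4 members left out of both the markers and the clustering, gave 29203 tumor-like nuclei (1694 to 7035 per tumor) beside fibroblast-like, endothelial-like, smooth muscle-like, macrophage-like, osteoclast-like and myocyte-like nuclei, and 13669 nuclei were left unnamed. A rule that left clusters with raised markers of several classes unnamed was set after marker and member values had been seen. The classes are therefore not fully blind to the members. Summed over the 8 tumor markers, such as Etv1, Etv4 and Etv5, tumor-like nuclei held 1.01% to 1.495% of their UMIs, against 0.167% to 0.634% in fibroblast-like nuclei. The ranges overlapped elsewhere, since smooth muscle-like nuclei of Minnelide tumor 1 reached 1.387% and unnamed nuclei 1.204%. Unnamed nuclei made up 48.9% of untreated tumor 1, 59.7% of untreated tumor 4 and 29.2% of Minnelide tumor 2, and at most 8.83% elsewhere. Untreated tumors 1 to 4 shared 132, 49, 111 and 63 nucleus barcodes with the Minnelide tumors of the same number, and no other pair of tumors shared any. Same-numbered tumors also carried the same bases at barcode positions 8 and 9, which differed between the tumors of a group. Each sample is labelled as 1 library, so library and treatment cannot be told apart. Labels do not tie the matrices to separate mice, so p-values measure the spread between these matrices. All levels below are CPM, the UMIs of a gene over summed nuclei scaled to a total of 1000000, and they are compared between tumors and classes for each gene and not between genes, whose lengths and capture differ. In summed nuclei, fewer cells with a transcript and less transcript per cell cannot be told apart.

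All 4 members were abundant in tumor-like nuclei of nearly every tumor, and untreated tumor 1 stood below the others for Muc5ac, Shc3 and Shc4. Endothelial markers summed to 0.360% of UMIs in tumor-like nuclei of untreated tumor 1 and to 0.0438% to 0.0769% in those of the other 7 tumors, and macrophage markers to 0.0962% against 0.0210% to 0.0458%. Its main tumor-like cluster had 9 of 11 endothelial and 6 of 10 macrophage markers raised, and their part in the low levels was not tested. The study describes endothelial cell-like tumor cells in 1 of the 4 dFLEx CDS tumors it profiled first. It reports reduced fusion activity in that subcluster, by the score that includes the 4 members. That tumor was not matched to a matrix here. Vgf stood at 997, 1588, 1122 and 793 CPM in untreated tumors 1 to 4 and at 2907, 1227, 3689 and 1674 CPM in Minnelide tumors 1 to 4. Minnelide tumors 1 and 3 were high, and Minnelide tumor 2 lay below untreated tumor 2, so the groups overlapped. Muc5ac stood at 87.6, 3029.7, 1613 and 2599.6 CPM in untreated tumors 1 to 4 and at 2235, 2623, 4072 and 3244 CPM in Minnelide tumors 1 to 4. Untreated tumor 1 was the low exception for this mucin, with 2624 UMIs among 29965219, and the other 7 tumors spanned 1613 to 4072 CPM.

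Shc3 stood at 917, 2226, 2498 and 2449 CPM in untreated tumors 1 to 4 and at 2545, 2354, 2419.9 and 2184 CPM in Minnelide tumors 1 to 4. Shc4 stood at 840.4, 2061, 1996 and 1925 CPM in the untreated and at 1913, 1726, 2054 and 1848 CPM in the Minnelide tumors in the same order. Apart from untreated tumor 1, both adaptors lay within a narrow range, 2184 to 2545 CPM for Shc3 and 1726 to 2061 CPM for Shc4. Counting error was small beside these differences, and the exact Poisson 95% interval of Muc5ac in untreated tumor 1, for example, ran from 84.2 to 91.0 CPM and covers counting error only. From the lowest to the highest tumor the level differed 46.5-fold for Muc5ac, 4.65-fold for Vgf, 2.78-fold for Shc3 and 2.45-fold for Shc4. Without untreated tumor 1 these ranges were 2.52-fold for Muc5ac, 4.65-fold for Vgf, 1.165-fold for Shc3 and 1.19-fold for Shc4.

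**Figure D2:**
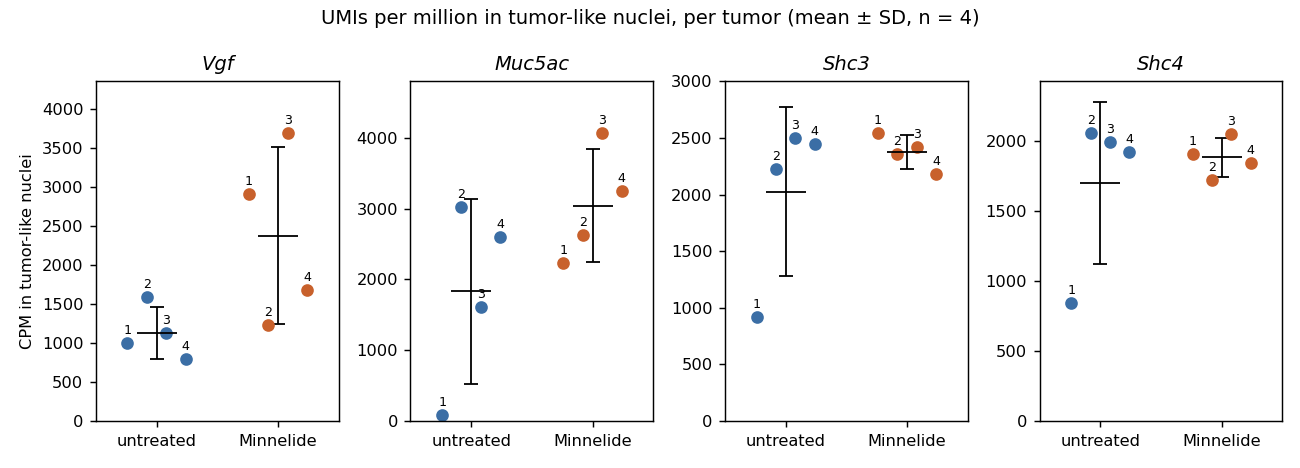
CPM of the 4 members in tumor-like nuclei (y axes from 0) for the 4 untreated and 4 Minnelide tumors, with the tumor number above each point and bars for mean ± SD (n = 4). The groups overlap for every member, and untreated tumor 1 is lowest for Muc5ac, Shc3 and Shc4.

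The treatment question was whether the targets were lower in tumors given Minnelide, and none was lower on average. In cultured human CIC::DUX4 sarcoma cells, the study reports VGF among the few targets lowered by Minnelide before most others changed. That experiment differs from these tumors in species, system and length of treatment, so the values cannot be set against each other. In tumor-like nuclei Vgf averaged 1125 ± 337 CPM (SD, n = 4) in untreated and 2374 ± 1128 CPM (SD, n = 4) in Minnelide tumors, a log2 difference of 1.177 ± 0.39 (SE) with an adjusted p of 0.525 by edgeR's quasi-likelihood test (unadjusted 0.0157). Muc5ac averaged 1832 ± 1306 and 3043 ± 802 CPM, a log2 difference of 0.78 ± 0.83 with an edgeR adjusted p of 0.756. The log2 differences of Shc3 and Shc4 were 0.30 ± 0.36 and 0.22 ± 0.34, with edgeR adjusted p-values of 0.785 and 0.833. No member passed the test (0 of 4), beside a background of 0% of 12895 genes called at an adjusted p below 0.05, while 1181 genes had an unadjusted p below 0.05 and DESeq2 called 101. The median log2 difference was 0.54 over the 4 members and 0.01 over all genes tested. Scaling by library totals instead of TMM moved the median of all genes to -0.10 and left the 4 differences above 0, at 1.08 for Vgf and 0.14 for Shc4. On simulated counts at the same sizes, with a common dispersion of 0.188, edgeR recovered 78% of 4-fold and 96% of 8-fold changes. The simulation changed 200 of 13157 genes, while 0% of the 12895 measured genes passed, so these rates may not hold for the measured counts. Smaller changes were not simulated. In the measured counts Cpe and Cdh1, described below, had log2 differences of -2.83 ± 0.64 and -4.37 ± 1.28. Both had an edgeR adjusted p of 0.525. Recovery was not tested separately for genes with an SE as large as the 0.83 of Muc5ac. The groups overlapped for each member, where 1.32% of the genes tested lay wholly above in the Minnelide tumors and 4.68% wholly below. Without untreated tumor 1 the log2 difference of Muc5ac was 0.36, that of Shc3 0.003 and that of Shc4 -0.06.

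Among the Minnelide tumors the file-name words did not order the members alike. Tumor-like nuclei of the responder tumors held 2235 and 2623 CPM of Muc5ac, below the 4072 and 3244 CPM of the nonresponder tumors. For Vgf they held 2907 and 1227 CPM against 3689 and 1674 CPM. For Shc3 the values were 2545 and 2354 CPM against 2419.9 and 2184 CPM, and for Shc4 1913 and 1726 CPM against 2054 and 1848 CPM. With 2 tumors per word and no sample label behind it, these are descriptions only. The study itself compares tumors with a favorable and a poor response to this dose, and its growth curves were not matched to the matrices here.

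In all retained nuclei none of the 4 passed either. Vgf stood at 1119, 1403, 862 and 927 CPM in untreated tumors 1 to 4 and at 2750.2, 907, 3494 and 1454 CPM in Minnelide tumors 1 to 4, with Minnelide tumor 2 among the untreated values. The log2 differences were 1.14 ± 0.41 for Vgf, 0.86 ± 0.83 for Muc5ac, 0.61 ± 0.35 for Shc3 and 0.47 ± 0.35 for Shc4, with edgeR adjusted p-values from 0.471 to 0.721 and a background of 0% of 13804 genes called. Without untreated tumor 1 they were 0.46 for Muc5ac, 0.35 for Shc3 and 0.23 for Shc4. The groups overlapped for each member, beside 0.659% of all genes that lay wholly above in the Minnelide tumors and 6.95% wholly below. Tumor-like nuclei made up 21.6% to 66.1% of retained nuclei in untreated and 24.99% to 83.2% in Minnelide tumors, and their part in the differences of all nuclei was not tested.

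In fibroblast-like nuclei the 4 differences had the same direction as in tumor-like nuclei. Vgf there stood at 779, 833, 555 and 484 CPM in untreated tumors 1 to 4 and at 2872, 1085, 2693 and 1239.7 CPM in Minnelide tumors 1 to 4. These groups did not overlap, nor did those of Muc5ac there. Muc5ac stood at 49.2, 978, 606 and 1055 CPM in the untreated and at 1568, 1659, 2566 and 1507 CPM in the Minnelide tumors. Shc3 stood at 123, 338, 649 and 552 CPM in the untreated and at 943, 743, 960.2 and 529 CPM in the Minnelide tumors, and Shc4 ranged from 144 to 529.8 CPM and from 470.5 to 840.3 CPM. For both adaptors Minnelide tumor 4 lay below at least 2 untreated tumors, so those groups overlapped. In fibroblast-like nuclei 1.66% of the genes tested lay wholly above in the Minnelide tumors and 3.15% wholly below. The log2 differences were 1.63 ± 0.36 for Vgf, 1.47 ± 0.72 for Muc5ac, 0.96 ± 0.47 for Shc3 and 0.85 ± 0.41 for Shc4. The edgeR adjusted p-values were 0.628 to 0.724, beside 0% of 11417 genes called, and DESeq2 gave Vgf an adjusted p of 0.0075 and called 31 genes. The summed tumor markers moved with these values, at 0.167% to 0.397% of UMIs in fibroblast-like nuclei of untreated and 0.330% to 0.634% in those of Minnelide tumors, and their part in the result was not tested. In macrophage-like nuclei, of which untreated tumor 1 had 3 and was left out, the log2 difference was 1.39 ± 0.41 for Vgf, 0.63 ± 0.33 for Muc5ac, 0.18 ± 0.36 for Shc3 and 0.05 ± 0.33 for Shc4 (edgeR adjusted p 0.9998 for each, 0% of 7269 genes called). Vgf there stood at 1490, 911 and 722 CPM in untreated tumors 2 to 4 and at 3590, 1661, 4087 and 1595 CPM in Minnelide tumors 1 to 4, without overlap, beside 2.26% of genes wholly above and 2.71% wholly below. The tumor markers summed to 0.364% to 0.688% of UMIs in macrophage-like nuclei of the untreated and 0.437% to 0.950% in those of the Minnelide tumors.

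By the median over tumors, fibroblast-like, macrophage-like, smooth muscle-like, osteoclast-like and myocyte-like nuclei held the smallest part of the tumor-like level for Shc3, followed by Shc4, Muc5ac and Vgf. Endothelial-like nuclei departed from this order, with 36.2% of the tumor-like level for Shc3, 35.4% for Shc4, 53.1% for Muc5ac and 65.9% for Vgf. Relative to tumor-like nuclei of the same tumor, fibroblast-like nuclei held a median of 25.1% of the Shc3 level, 26.8% of Shc4, 51.3% of Muc5ac and 73.5% of Vgf over the 8 tumors. Macrophage-like nuclei held 40.8%, 47.9%, 78.5% and 95.3% in the same order over 7 tumors. Myocyte-like nuclei, the class of the muscle in which the tumors grew, held 15.7%, 20.1%, 37.7% and 60.4%. Smooth muscle-like nuclei held 32.0%, 41.1%, 62.3% and 72.7% over 6 tumors, except that in Minnelide tumor 1 they held 95.5% of Shc3, 90.8% of Shc4, 65.7% of Muc5ac and 52.1% of Vgf. In those nuclei of Minnelide tumor 1 the tumor markers summed to 1.387% of UMIs, inside the tumor-like range of 1.01% to 1.495%. Their class name is therefore uncertain, and they stayed in the medians and in the tests below.

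Differences between classes were tested within tumors on log2(CPM + 1), with exact sign-flip permutation tests (two-sided) adjusted over 84 comparisons, those of 21 pairs of classes for 4 members. Tumor-like exceeded fibroblast-like nuclei in 8 of 8 tumors for each member, by a mean log2 difference of 2.02 ± 0.56 (SD) for Shc3, 1.86 ± 0.50 for Shc4, 1.01 ± 0.41 for Muc5ac and 0.51 ± 0.35 for Vgf (exact permutation p = 0.0078, the smallest 8 tumors allow, adjusted 0.0423). Of the 6 comparisons of tumor-like nuclei with another class, 5 passed for Shc3, 5 for Shc4 and 5 for Muc5ac, and 3 for Vgf, with tumor-like nuclei higher in each. Of all 84 comparisons 31 passed, or 13 of the 60 without tumor-like nuclei. All passed at the same adjusted p of 0.0423, near the threshold, and with smooth muscle-like nuclei, present in 6 tumors, the smallest adjusted p was 0.0656, so none could pass. For Vgf, tumor-like against macrophage-like nuclei did not pass, with a mean log2 difference of -0.04 ± 0.26 over 7 tumors, higher in 4 of 7 (exact permutation p = 0.6875, adjusted 0.791). Macrophage-like nuclei were the shallower class in each of these tumors, and the part of depth was not tested. The count was 30 without untreated tumor 1 and 0 without any other of the 8 tumors, where the smallest p rises with fewer tumors, and 0 with the coarser clustering at Leiden resolution 0.5. Because the tumor-like class was named by other genes that the fusion is thought to drive, these tests compare classes that are not independent of the members' regulation. The rule on mixed clusters was also set after member values had been seen.

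In the 6 tumors with all 7 classes, Vgf was ordered from macrophage-like (geometric mean 1697 CPM) and tumor-like (1628 CPM) through endothelial-like (1184 CPM), smooth muscle-like (1168 CPM), fibroblast-like (1111 CPM) and osteoclast-like (1009 CPM) to myocyte-like nuclei (953 CPM). No neighbours in this order passed the test, which used all tumors with both classes, with adjusted exact permutation p-values from 0.0656 to 0.917. In these 6 tumors macrophage-like nuclei had median depths of 1330 to 3556.5 UMIs, each below the tumor-like median of the same tumor (1801 to 3905 UMIs). Their cluster also had 7 of 8 tumor markers raised. The part of depth and of these markers in the Vgf order was not tested. For the other members tumor-like nuclei came first and myocyte-like nuclei last, 2592 and 1094 CPM for Muc5ac, 2413 and 524 CPM for Shc3, and 1942 and 512 CPM for Shc4. Among their neighbours, tumor-like against macrophage-like nuclei passed for Muc5ac and Shc3, and endothelial-like against fibroblast-like nuclei for Muc5ac (adjusted exact permutation p = 0.0423 each).

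**Figure D3:**
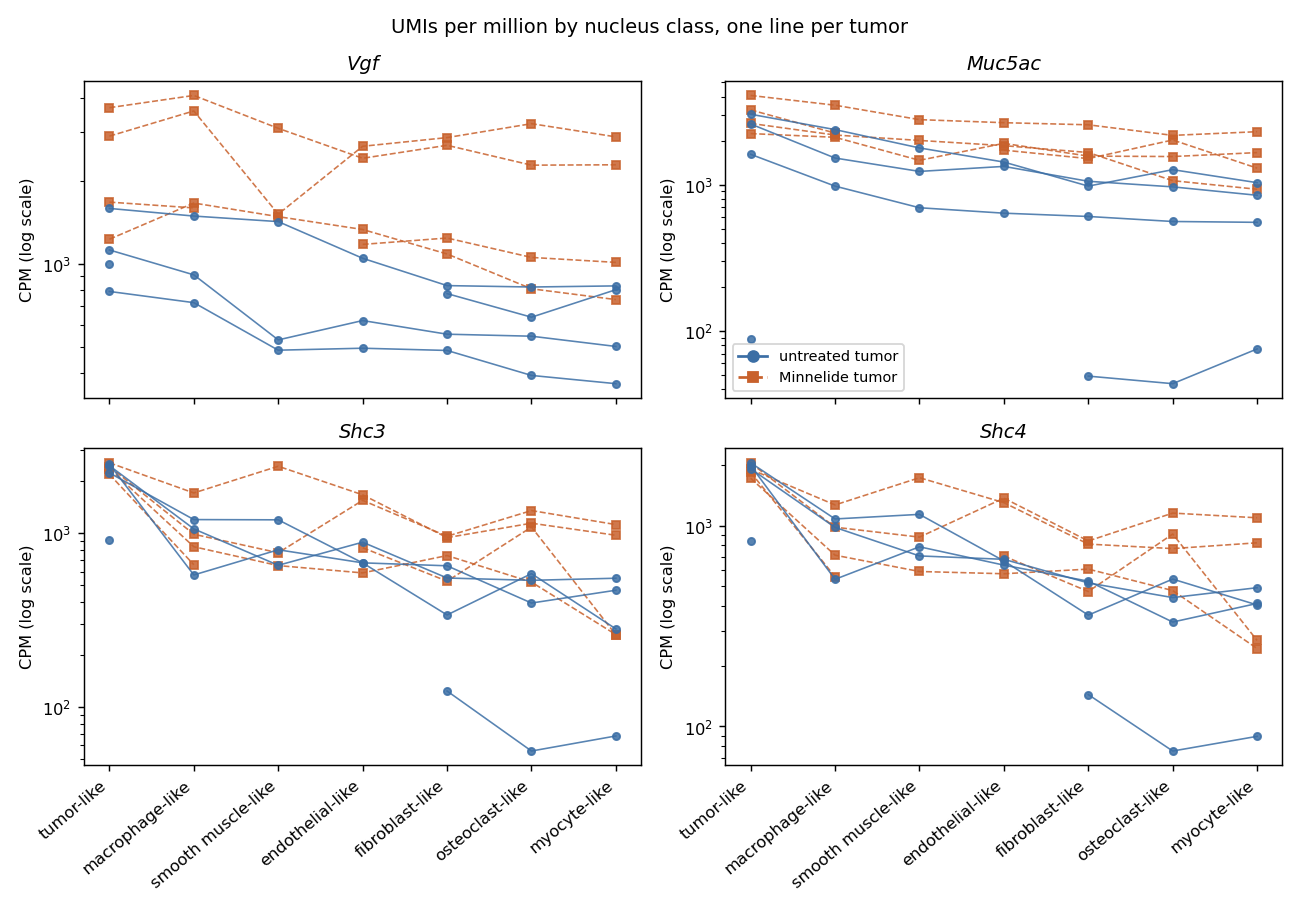
CPM of each member (log scale) in 7 classes of nuclei, with 1 line per tumor (untreated solid with circles, Minnelide dashed with squares) and no point where a tumor had under 20 nuclei of a class. Shc3 and Shc4 fall from tumor-like to myocyte-like nuclei in every tumor, while the Vgf lines are flatter, with untreated tumor 4 lowest in all 7 classes.

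The same tumors were high or low for Vgf and Muc5ac in every class. Untreated tumor 4 had the lowest Vgf in 7 of 7 classes, from 367 CPM in myocyte-like to 793 CPM in tumor-like nuclei, and the highest was Minnelide tumor 1 or Minnelide tumor 3 in each. Muc5ac was highest in Minnelide tumor 3 in 7 of 7 classes. Untreated tumor 1, with little Muc5ac in tumor-like nuclei, had 49.2 CPM in fibroblast-like, 75.5 CPM in myocyte-like and 43.7 CPM in osteoclast-like nuclei, the last from 11 UMIs.

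Ratios between members within a tumor compare genes of 1 library. The ratio of Muc5ac to Vgf CPM in tumor-like nuclei ranged from 0.088 in untreated tumor 1 to 3.28 in untreated tumor 4, a 37.3-fold range between tumors. Without untreated tumor 1 the lowest ratio was 0.769, in Minnelide tumor 1, and the range 4.27-fold. Within a tumor, the ratio in the other named classes differed by 1.22 to 2.01-fold from the lowest to the highest class, with a median of 1.32. It was above the tumor-like ratio in 2 of 44 pairs of class and tumor. The ratio of Shc4 to Shc3 was the steadiest between tumors, 0.733 to 0.926 in tumor-like nuclei.

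Vgf and Shc3 did not keep such a ratio. Vgf over Shc3 in tumor-like nuclei ranged from 0.324 to 1.52, and it was higher in the other class in 43 of 44 pairs of class and tumor. In untreated tumor 1 it was 1.09 in tumor-like nuclei and 6.32, 11.5 and 11.9 in fibroblast-like, osteoclast-like and myocyte-like nuclei. The part that transcripts from outside nuclei, caught with every nucleus, had in these levels and ratios was not tested.

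**Figure D4:**
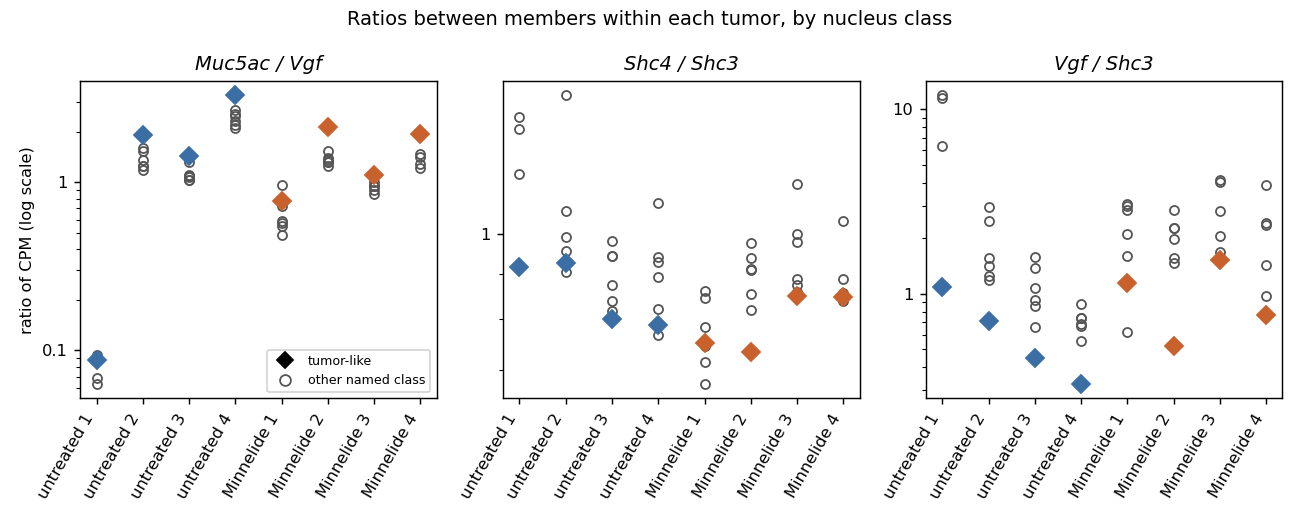
Ratios of CPM (log scales) of Muc5ac to Vgf, Shc4 to Shc3 and Vgf to Shc3 in each tumor, with filled diamonds for tumor-like nuclei and open circles for the other named classes. Muc5ac over Vgf differs more between tumors (37.3-fold, or 4.27-fold without untreated tumor 1) than between classes of 1 tumor (up to 2.01-fold), and Vgf over Shc3 lies above the tumor-like value in 43 of 44 pairs.

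Whether the distance between tumor-like and fibroblast-like nuclei changed with treatment was tested on the per-tumor log2 difference. It was 0.75 ± 0.29 in untreated and 0.27 ± 0.21 in Minnelide tumors for Vgf (mean ± SD, n = 4 each), 1.29 ± 0.34 and 0.74 ± 0.26 for Muc5ac, 2.42 ± 0.45 and 1.62 ± 0.32 for Shc3, and 2.21 ± 0.36 and 1.49985 ± 0.33 for Shc4. The distance was smaller on average in the Minnelide tumors for all 4 members and the groups overlapped for each. Exact permutation p-values (two-sided) were 0.0857, 0.0571, 0.0571 and 0.0857, adjusted 0.0857 for each, where 4 against 4 tumors allow 0.0286 at the least.

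The members varied in opposite directions with the depth of the nucleus. When the tumor-like nuclei of each tumor were split into 4 equal quartiles by UMI count, Vgf CPM was higher in the shallowest than in the deepest quartile in 8 of 8 tumors, by 1.35 to 3.04-fold (median 1.99). In Minnelide tumor 3 it fell from 7373 CPM in the shallowest quartile through 5206 and 3745 to 2426 CPM in the deepest. Muc5ac was likewise higher in 8 of 8 tumors, by 1.08 to 2.14-fold (median 1.41). Shc3 went the other way in 8 of 8 tumors, with 0.679 to 0.929 times the level of the deepest quartile, and Shc4 in 7 of 8, with a ratio of 0.759 to 1.01. The median mitochondrial share of UMIs per nucleus was 0.279% to 1.03% in the shallowest and 0.161% to 0.547% in the deepest quartiles and was higher in the shallowest in 8 of 8 tumors, and its part in these differences was not tested.

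**Figure D5:**
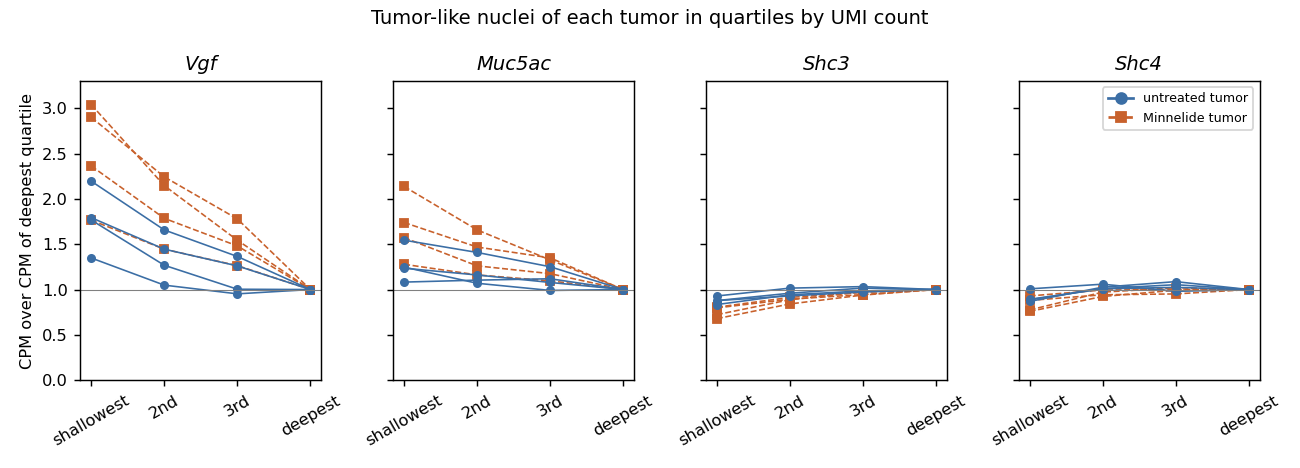
CPM of each member in quartiles of the tumor-like nuclei by UMI count, divided by the CPM of the deepest quartile of the same tumor (y axis from 0, grey line at 1), with solid lines and circles for untreated and dashed lines and squares for Minnelide tumors. Vgf rises up to 3.04-fold toward the shallowest quartile and Shc3 falls in every tumor.

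The same split was seen in shallow unnamed clusters of untreated tumors 1 and 4, whose markers pointed to several classes at once. Over all unnamed nuclei of a tumor it was not general. Vgf was above the tumor-like level in 4 of 8 tumors and Muc5ac in 3 of 8. An unnamed cluster of 2354 nuclei in untreated tumor 1 (median 1021 UMIs) held 2503 CPM of Vgf and 194 CPM of Shc3. The main tumor-like cluster of that tumor, with 1786 nuclei and a median of 10125 UMIs, held 971 and 892 CPM. In untreated tumor 4, an unnamed cluster of 6079 nuclei (median 751 UMIs) held 1624 CPM of Vgf, 3807 CPM of Muc5ac and 1513 CPM of Shc3, against 789, 2598 and 2453 CPM in its main tumor-like cluster of 2152 nuclei. That unnamed cluster of untreated tumor 4 had 8 of 8 tumor and 9 of 11 myocyte markers raised. At Leiden resolution 2.0, a cluster of 6215 nuclei, 95.2% of them from untreated tumor 4, was named tumor-like. The tumor-like levels of untreated tumor 4 given above leave the unnamed cluster out. Untreated tumor 1 also held a tumor-like cluster of 123 nuclei that differed from its main one. It had 559 CPM of Muc5ac against 76.0, 1921 CPM of Shc3 against 892, and 1849 CPM of Shc4 against 816. These are single clusters, described with no test.

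Outside Muc5ac in untreated tumor 1, most tumor-like nuclei held at least 1 UMI of each member. Without thinning, 94.2% to 98.3% had a UMI of Shc3, 91.9% to 98.1% one of Shc4 and 79.1% to 100% one of Vgf. A Muc5ac UMI was found in 39.5% of them in untreated tumor 1, against 90.3% to 100% elsewhere. Thinned to 1000 UMIs per nucleus, the share with Vgf was 66.3% ± 11.4 in untreated and 86.5% ± 11.5 in Minnelide tumors (SD, n = 4; exact permutation p = 0.0571, adjusted 0.171). For Muc5ac it was 64.7% ± 39.4 and 92.4% ± 3.5 (exact permutation p = 0.0857, adjusted 0.171). Shares for Shc3 were 79.7% ± 14.9 and 86.1% ± 1.2 (exact permutation p = 0.771, adjusted 1) and for Shc4 77.0% ± 14.4 and 81.8% ± 1.3 (exact permutation p = 1, adjusted 1). The design could reach 0.0286 at the least. Without untreated tumor 1 the difference in share was 8.40 percentage points for Muc5ac, from 27.7, and it turned to -1.10 for Shc3, from 6.32, and to -2.43 for Shc4, from 4.77.

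The fusion transcript itself was not measured, and fibroblast-like nuclei also gave high shares at the same depth. In fibroblast-like nuclei, whose median depth was 2001 to 4395 UMIs against 1801 to 9584 in tumor-like nuclei, the share with a UMI at 1000 UMIs was 43.3% to 92.4% for Vgf, 5.71% to 90.2% for Muc5ac, 7.43% to 50.7% for Shc3 and 12.5% to 51.8% for Shc4. A UMI of Vgf or Muc5ac therefore did not mark a tumor-like nucleus here. In untreated tumor 1, Muc5ac was seen in 6.78% of tumor-like and 5.71% of fibroblast-like nuclei at 1000 UMIs. Shc3 separated the classes in the same tumor, with 57.5% and 7.43%.

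At 1000 UMIs, all 4 members were seen together in 1.88% of tumor-like nuclei of untreated tumor 1 and in up to 66.8% elsewhere, with a median of 48.5% over the 8 tumors. For each of the 6 pairs of members, the share of nuclei with both was 0.964 to 1.08 times the product of the single shares in every tumor. Where single shares are high this ratio cannot rise far above 1, so the low Muc5ac of untreated tumor 1 left most room, and there it was 1.03 with Vgf and 1.08 with Shc3.

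Genes whose log2(CPM + 1) followed a member over 47 profiles of class and tumor, among 11134 genes, differed between the members. Profiles of 1 tumor share a library and depth, so the correlations are descriptions. Muc5ac stood at only 43.7 to 87.6 CPM in the profiles of untreated tumor 1, and the correlations were not repeated without that tumor. Etv5, which appears below for Shc3 and Shc4, is also a marker that named the tumor-like class. Vgf was most like Mfap2 (Pearson r = 0.90), a microfibril protein, Cytl1 (0.90) and Mdk (0.86), a secreted growth factor, followed by Ostc (0.82), a subunit of the oligosaccharyltransferase, and Emc10 (0.82). Muc5ac was most like Gabrb1 (0.93), a GABA receptor subunit, the proteoglycan Vcan (0.93), the protease inhibitor A2m (0.93), Col9a1 (0.92) and Col2a1 (0.91), which are cartilage collagens. Shc3 was most like Asic2 (0.98), an ion channel, Pde10a (0.98), a phosphodiesterase, Etv5 (0.98), Hmga2 (0.98) and the receptor tyrosine kinase Alk (0.97), and the same 5 genes led for Shc4, each at 0.97. Shc3 and Shc4 followed each other most closely (0.99), while Vgf followed Shc3 at 0.49 and Muc5ac at 0.52, and Muc5ac followed Shc3 at 0.77.

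The genes that work with the members were looked at in tumor-like nuclei as lists, and 0 genes of any list passed edgeR's test at an adjusted p below 0.05. Cpe and Cdh1 had an unadjusted p below 0.05, and DESeq2 called Cpe. The lists were chosen with earlier results of these data known. Of the 11 other genes of the fusion activity score, 11 were tested, 7 with a log2 difference above 0 and 4 below, with a median of 0.23 against 0.01 over all genes. Etv1 averaged 5095 CPM over the 8 tumors (log2 difference 0.33 ± 0.25, edgeR adjusted p 0.660), Etv4 2853 CPM (-0.30 ± 0.25, adjusted p 0.684) and the cyclin Ccnd2 1887 CPM (0.37 ± 0.33, adjusted p 0.708).

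Among the SHC family, the widely expressed Shc1 had 36.9 to 56.9 CPM in untreated and 55.7 to 61.9 CPM in Minnelide tumors (log2 difference 0.36 ± 0.19, edgeR adjusted p 0.554). Shc2 had 0.854 to 5.35 CPM over all tumors. Of 12 genes between SHC proteins and RAS, 12 were tested, 6 above and 6 below 0, with a median of 0.02. Highest were the docking proteins Gab2 (mean 580.1 CPM, log2 difference -0.63 ± 0.37, edgeR adjusted p 0.572) and Gab1 (252 CPM, -0.02 ± 0.19, adjusted p 0.978).

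Granins and prohormone processing genes, the usual company of Vgf, were mostly too low to test. Of 12, 5 were tested and all 5 had differences below 0 (median -1.64), opposite to Vgf. Cpe, a carboxypeptidase that trims prohormones, had 225, 60.4, 62.4 and 18.4 CPM in untreated tumors 1 to 4 and 11.2, 16.5, 8.41 and 8.93 CPM in Minnelide tumors 1 to 4, so the groups did not overlap, beside 4.68% of genes wholly below in tumor-like nuclei. Its log2 difference was -2.83 ± 0.64 with an edgeR adjusted p of 0.525 and a DESeq2 adjusted p of 0.0027. Pam, which amidates peptides, averaged 251 CPM (log2 difference -0.17 ± 0.56, edgeR adjusted p 0.925) and Cadps, a factor of dense-core vesicle release, 41.4 CPM (-1.91 ± 0.83, adjusted p 0.525). Proposed receptors of VGF peptides were low to moderate, with means of 91.6 CPM for Hspa8, 12.6 CPM for C1qbp and 3.06 CPM for C3ar1, and all 3 were tested with a median of 0.08.

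Other mucins were nearly missing where Muc5ac was abundant. Of 10, only Muc2 was counted highly enough in tumor-like nuclei to be tested, at 0.801 to 30.9 CPM (log2 difference 0.49 ± 0.89, edgeR adjusted p 0.858), lowest in untreated tumor 1 as Muc5ac was. Muc1 averaged 0.447 CPM, Muc6 0.311 CPM and Muc5b 0.0447 CPM, and Muc5b was at 0 in 5 of 8 tumors. Mucous epithelium genes gave 3 of 12 tested, none above 0. The adhesion protein Cdh1 stood at 51.6, 3.40, 1.24 and 1.42 CPM in untreated tumors 1 to 4 and at 0.394 to 0.902 CPM in the Minnelide tumors (log2 difference -4.37 ± 1.28, edgeR adjusted p 0.525, with no DESeq2 adjusted p). In all retained nuclei the DESeq2 adjusted p of Cdh1 was 0.013. Spdef averaged 0.958 CPM and Epcam 0.729 CPM. Of 8 neuronal genes 5 were tested, 1 above and 4 below 0 (median -0.76), and the highest were Gap43 at a mean of 47.4 CPM, Elavl4 at 3.11 CPM and Stmn2 at 2.61 CPM.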

How the data were processed

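Nuclei of dFLEx CDS tumors were profiled by the authors with the Chromium 3′ kit and on-chip multiplexing, and the deposited matrices hold raw UMI counts per gene and nucleus. The submitters' processing notes name bcl2fastq 2.20, Cell Ranger 7.0.1 and the mm39 build, while the file headers name a later Cell Ranger release. Which annotation or probe set gave the 19059 features is not given in the sources used here. Total UMIs per tumor ranged from 18487409 to 73211599.

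Nuclei with at least 200 detected genes were kept, and 7951 were removed by a mixture model of mitochondrial share after miQC (posterior above 0.75) and 5031 as doublets by Scrublet at an expected 0.8% per 1000 nuclei. The miQC package, scDblFinder and Harmony of the study were not used. Clustering took 1926 of 2000 variable genes (without the members, marker genes and other fusion activity genes), 30 principal components, 40 neighbors and Leiden resolution 1 (scanpy 1.11.5, leidenalg 0.10.2). Marker levels were compared, inside each tumor, with the lowest 10% of clusters, and a cluster took the class with the highest mean marker fold among those with at least 3 markers raised 1.5-fold on CPM + 20 and seen in 5% of nuclei. It stayed unnamed where another class led its top 10 genes, or where at least 50% of the markers of 3 or more other classes were raised, the latter a rule set after marker and member values had been seen. Classes under 20 nuclei in a tumor were left out of it.

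UMI counts were summed per tumor and class. Minnelide and untreated tumors were compared with edgeR 4.0.16 (TMM, quasi-likelihood test, R 4.3.3, Benjamini-Hochberg adjustment over all genes tested, filter on low counts), with DESeq2 1.42.0 as an alternative. Class differences, shares of nuclei with a UMI after thinning to 1000 UMIs and differences between groups were tested with exact permutation tests over tumors (scipy 1.17.1, two-sided). CPM intervals are exact Poisson at 95% and cover counting error only. On simulated tumor-like counts (13157 genes, 200 changed), edgeR made 10 false calls. Octamers were searched in GRCm39 with GENCODE annotation.

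The 4 members, the gene lists and the tests were chosen with earlier results of these data known. Genes named are the members, Shc1, Shc2, Muc2, Muc5b, Muc6 and Etv4, the 3 highest genes in tumor-like nuclei and any called gene of each list, and the 5 genes most like each member with a mean of at least 5 CPM over profiles of at least 50 nuclei. One gene that this rule names is not reported here. Other filters, clusterings, naming rules, pseudocounts, depths and leaving out tumors were run as alternatives.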

Additional observations from a re-analysis of the deposited data

Results flagged for a closer look

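Of 48 sets of 4 tumors examined for a tumor far from the other 3 of its group, 7 held one, where chance gives about 1 in 20. Untreated tumor 1 accounted for 5 of them, all for the SHC adaptors. It held 840.4 CPM of Shc4 in tumor-like nuclei against 1925 to 2061 CPM in the other untreated tumors, and 55.4% of its tumor-like nuclei had a Shc4 UMI at 1000 UMIs against 83.9% to 84.7%. For Shc3 the share of tumor-like nuclei was 57.5% against 84.6% to 88.8%, the level in all retained nuclei 677 CPM against 1540.5 to 1714 CPM, and the share of all retained nuclei 30.5% against 64.6% to 69.3%. Etv4 was not low in the same tumor, at 3439 CPM in tumor-like nuclei, within the 2522 to 3910 CPM of the other untreated tumors. Etv4 is also one of the markers that named the tumor-like class, so its level there is not independent of the naming. Untreated tumor 1 was also the one with the deepest tumor-like nuclei (median 9584 UMIs). In them endothelial markers summed to 0.360% of UMIs, against 0.0438% to 0.0769% in the other 7 tumors. The study itself describes a tumor with endothelial cell-like tumor cells and reduced fusion activity in them, which was not matched to a matrix here. The part of depth and of these markers in the values was not tested.

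In Minnelide tumor 2, 57.9% of all retained nuclei had a Shc3 UMI at 1000 UMIs, against 77.1% to 80.7% in the other Minnelide tumors. Tumor-like nuclei made up 24.99% of that tumor and 72.5% to 83.2% of the others. In Minnelide tumor 3, Muc5ac in fibroblast-like nuclei stood at 2566 CPM, against 1507 to 1659 CPM in the other Minnelide tumors, and it was the highest of that group in tumor-like nuclei too.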

How the results depend on the processing

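Among values of single members, 538 kept their direction and side of the threshold under the alternatives, 167 kept the direction but lost the call, 1 gained it and 14 reversed. Many of the 538 were not called to begin with. All lost calls were class differences, the only tests with calls to lose. There 47 values of Muc5ac lost the call and 42 kept their side, called or not. These counts were 45 and 44 for Shc3, 45 and 44 for Shc4, and 30 and 57 for Vgf. DESeq2 called 183 genes in all retained nuclei, 101 in tumor-like and 31 in fibroblast-like nuclei where edgeR called 0, and with it Vgf in fibroblast-like nuclei passed (adjusted p 0.0075). Stricter naming of clusters left tumor-like nuclei in Minnelide tumors 1 and 3 and untreated tumors 2 to 4 only, and 4 genes were called there, with log2 differences of -0.031 for Shc3 and -0.26 for Shc4 and a difference in share of -5.23 percentage points for Shc4. With unnamed clusters with raised tumor markers added to the tumor-like nuclei, 0 of 13215 genes were called. Without the rule on mixed clusters, 0 of 13085 were. Over all alternatives the log2 difference of Vgf in tumor-like nuclei ranged from 0.82 to 1.40. Leaving out each tumor in turn gave 0 to 1 called genes in all retained nuclei and in macrophage-like nuclei, the 1 without Minnelide tumor 2. The log2 difference in tumor-like nuclei then ranged from 0.87 to 1.40 for Vgf, 0.36 to 1.11 for Muc5ac, 0.003 to 0.43 for Shc3 and -0.065 to 0.31 for Shc4, and in macrophage-like nuclei from -0.16 to 0.42 for Shc3 (-0.08 without untreated tumor 3) and -0.20 to 0.28 for Shc4 (-0.18 without Minnelide tumor 1).

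Of the 31 class differences called, 0 passed at Leiden resolution 0.5, 20 at 2.0, 0 with stricter naming, 0 without untreated tumors 1 and 4, and 0 to 30 without each tumor in turn, where fewer tumors raise the smallest p by construction. Vgf in tumor-like against macrophage-like nuclei ranged from -0.099 to 0.024 (0.0022 without Minnelide tumor 1). The difference in share ranged from -1.10 to 9.35 percentage points for Shc3 and -2.43 to 7.35 for Shc4 without each tumor in turn, and was -0.65 and -2.55 without untreated tumors 1 and 4. The mixed-cluster alternatives and the last setting were chosen after seeing the data. Fibroblast-like nuclei under stricter naming, and macrophage-like nuclei under it and under both other resolutions, could not be fitted. No paired analysis was possible because the labels give no tumor numbers that the groups share.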

Other observations

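Of 11 other genes of the fusion activity score tested in fibroblast-like nuclei, 10 had a log2 difference above 0 between Minnelide and untreated tumors and 1 below, with a median of 0.56 against -0.01 over all genes, where 3 had an unadjusted p below 0.05 and 0 passed edgeR's adjusted test or DESeq2's. Over all 11417 genes tested there, 799 or 6.998% had an unadjusted p below 0.05. The tumor markers, which include Etv1, Etv4 and Etv5 of the same list, summed to 0.167% to 0.397% of UMIs there in untreated and 0.330% to 0.634% in Minnelide tumors, and their part was not tested. In tumor-like nuclei 7 of 11 were above 0 (median 0.23) and in macrophage-like nuclei 6 of 9 (median 0.06).

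Tumor-like nuclei held 25.2% to 85.03% of all Vgf UMIs of a tumor's retained nuclei, 28.6% to 86.4% of Muc5ac, 31.3% to 89.6% of Shc3 and 32.1% to 88.9% of Shc4, beside 18.7% to 80.5% of all UMIs. The Vgf share was above that of all UMIs in 6 of 8 tumors and below it in untreated tumor 1 (53.2% against 59.7%) and untreated tumor 4 (30.5% against 35.6%). Unnamed nuclei held up to 53.8% of the Vgf and 57.4% of the Shc3 UMIs of a tumor.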
